A study of Mus musculus with 43 samples.

Results

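The mitochondrial ribosomal proteins are described here as 76 genes, 47 with symbols starting with Mrpl and 29 with symbols starting with Mrps, of 18193 genes that a single annotated symbol names on the array. They were taken from the deposited signals by symbol alone: 156 probe sets carried such a symbol, and for every gene the one whose signal averaged highest over all arrays was kept. Mrpl30 and Mrpl53, the 2 genes found only on probe sets shared with other genes, were left out. All 76 symbols matched current RefSeq names, all 76 passed the filter on low signals, and all 76 lay above the array median on each of the 43 arrays, so no member entered through 1 group alone.

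The cells were CTLL-2, a line of mouse cytotoxic T lymphocytes that needs the cytokine interleukin-2 (IL-2) to grow. After 14 h of culture without IL-2, which every group shared, cells received human recombinant IL-2 at 100 U per mL and were collected after 0.5, 1, 2, 6, 8, 10, 12, 16 or 24 h (3 arrays each) or after 4 h (4 arrays). Cells left in IL-2-free medium for 4 h more (4 arrays) or 8 h more (3 arrays) and cells taken at the end of the starvation (5 arrays, called starved here) are the groups they were set against. Total RNA was hybridised to Affymetrix Mouse Genome 430 2.0 arrays, 1 sample per array. The series is 1 established line, so differences between animals were not sampled, and the number of arrays per group limits the precision. In RNA from whole cultures, fewer cells of a type and less RNA per cell cannot be told apart.

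Mitochondria carry their own ribosomes, which translate the few proteins that mitochondrial DNA encodes, all of them subunits of the respiratory chain and ATP synthase. The RNA of this ribosome is made in the organelle, but its proteins are encoded in the nucleus, made in the cytosol and imported, so that a new ribosome draws on many nuclear genes. Some of these proteins descend from bacterial ribosomal proteins, while others are found only in mitochondria. T cells that leave a resting state are known to enlarge their mitochondria and to need mitochondrial translation.

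The arrays stood apart in 2 ways before any comparison. The 7 arrays of 1 scan day, spread over the starved, 0.5, 1, 2, 6 and 24 h groups, had median signals of 96.3 to 118.6, against 46.1 to 76.5 on the other 36 arrays, although all 43 had a 2% trimmed mean of 500.003 to 500.004. The 7 arrays without IL-2 at 4 and 8 h were all scanned in a later year than the other 36, and their ratio of 3' to 5' actin signal was 1.18 to 1.53 (median 1.34), against 1.07 to 1.36 (median 1.155). In any comparison of those 7 arrays with arrays given IL-2, the effect of IL-2 and that of the scan year cannot be told apart. Where those 7 arrays are set against starved cells, the further hours without IL-2 and the scan year cannot be told apart. Of 10 annotated T cell markers, 9 lay above the array median on all 43 arrays, among them Cd3e, Cd3g, Thy1 and Gzmb, and Cd2 lay at or below it on all of them. Of the markers of other cells, Cd14, Csf1r and Adgre1 of macrophages lay above the median on 42, 40 and 32 arrays and Col1a2 of fibroblasts on 39, with highest signals of 492.3, 430.4, 264.4 and 287.6. The summed signals of the B cell, macrophage, fibroblast and erythroid markers reached at most 320.9, 1045.0, 783.7 and 160.3, while those of the T cell markers ranged between 142585 and 277787. The part of such cells in the results was not tested.

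The promoters of 67 of the 76 genes were found in RefSeq's table for GRCm38.p6. Over the 250 bases before the gene's start, on both strands, the NRF1 motif, GCGCA and GCGC with any 1 base between them, was present in 9 of the 67 promoters (13.4%) and in 5.30% of 17492 protein-coding promoters. The GABP motif CCGGAAG was present in 16 (23.9%, against 9.13% of all), the YY1 motif AAGATGG in 6 (8.96%, against 4.10%) and the E-box CACGTG in 5 (7.46%, against 6.64%). NRF1 and GABP are factors known for nuclear genes of mitochondrial proteins, and Myc binds E-boxes. A match is a match of letters only. The 150 bases before the start of 4 genes are shown as examples of where the NRF1 motif stands, with its matches in capitals. These genes, 2 called higher with IL-2 and 2 called lower, were chosen after their values were seen, so they do not show how often the motif occurs in either direction.
Mrpl12 (chr11:120484487-120484636, plus strand; called higher): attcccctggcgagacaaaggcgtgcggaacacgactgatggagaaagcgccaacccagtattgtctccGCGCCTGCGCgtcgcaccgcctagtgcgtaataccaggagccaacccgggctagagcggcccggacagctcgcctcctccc
Mrpl17 (chr7:105811088-105811237, minus strand; called higher): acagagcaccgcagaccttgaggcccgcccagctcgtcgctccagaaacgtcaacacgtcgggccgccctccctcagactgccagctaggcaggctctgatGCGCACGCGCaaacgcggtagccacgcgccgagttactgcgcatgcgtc
Mrpl39 (chr16:84735245-84735394, minus strand; called lower): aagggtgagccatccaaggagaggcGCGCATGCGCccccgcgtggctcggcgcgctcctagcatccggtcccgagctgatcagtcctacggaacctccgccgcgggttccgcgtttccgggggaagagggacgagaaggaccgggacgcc
Mrpl45 (chr11:97315566-97315715, plus strand; called lower): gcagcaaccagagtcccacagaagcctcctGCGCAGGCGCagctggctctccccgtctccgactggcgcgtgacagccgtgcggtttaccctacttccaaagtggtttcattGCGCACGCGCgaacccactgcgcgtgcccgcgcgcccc
Among the 34 genes with a matched promoter that were called higher at any time, 3 held the NRF1 motif, 7 the GABP motif and 4 the E-box. Among the 6 genes with a matched promoter that were called lower, 3 held the NRF1 motif, 2 the GABP motif and 0 the E-box. Among the 33 genes not called higher, these 6 included, the counts were 6, 9 and 1.

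Over the IL-2 time course, 40 of these 76 genes were called higher than in starved cells at 1 or more times, all of them between 4 and 24 h. The share of all probe sets called higher at 1 or more times was not computed. The number of members called higher was largest at 12 h. The F test of limma ran over the starved group and the 10 IL-2 times, with Benjamini-Hochberg adjustment over 32234 probe sets. It called 44 of 76 members (57.9%), while 26.7% of all probe sets tested were called. Members count 1 probe set per gene here and below, while the shares over all count every tested probe set. Counting every tested probe set of the members, the F test called 64 of 149. Of the 44 members called, 6, 10, 11 and 12 had their highest mean at 8, 10, 12 and 16 h. The lowest mean was that of 0.5 h in 17 and that of 1 h in 14. All differences given are on the log2(signal + 16) scale, and a member is called where its adjusted p is under 0.05. Against starved cells, the effect of IL-2 and that of time in culture cannot be told apart.

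Set against starved cells, limma called 0 members after 0.5 h and 0 after 1 h, with 3 and 6 at an unadjusted p under 0.05 (3.95% and 7.89% of members, against 5.56% and 8.97% of all), where it called 0.133% (0.112% higher, 0.0217% lower) and 0.518% (0.388% higher, 0.130% lower) of all probe sets. At 2 h it called 1 member, Mrpl9, which was lower, against 2.81% of all called, 1.64% higher and 1.17% lower. At 4 h, 13 members were higher and 5 lower, against 6.51% of all probe sets higher and 8.55% lower (15.1% called). At 6 h, 18 were higher and 4 lower, against 6.75% and 10.0% (16.8% called). The higher calls then outnumbered the lower ones further, with 27 and 1 for 8 h, 33 and 0 for 10 h, and 35 and 0 for 12 h, where 19.1%, 20.0% and 19.3% of all probe sets were called and 7.09%, 7.90% and 7.91% were higher and 12.0%, 12.1% and 11.4% lower. At 16 h the counts were 30 and 1 (15.4% of all called, 6.81% higher and 8.54% lower), and at 24 h they were 12 and 1 (8.75% called, 3.44% higher and 5.32% lower). With only the arrays compared in the fit, 13 members were called at 16 h and 0 at 24 h. At 24 h the count was 6 with arrays centred on their medians and 22 with the scan day as a random block.

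**Figure D1:**
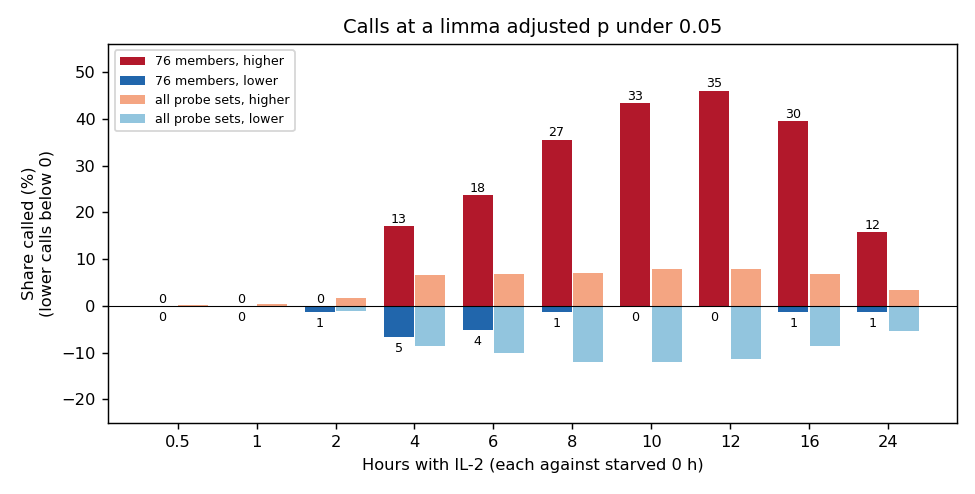
Share of the 76 members and of the 32234 probe sets tested that limma called at each IL-2 time against starved cells, in percent, with higher calls above 0, lower calls below 0 and member counts printed at the bars. Higher calls of members run to 35 at 12 h and 12 at 24 h, while no lower call stands at 10 and 12 h.

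For the times 0.5, 1 and 2 h, the median difference of the 76 members was -0.16, -0.14 and -0.05. It was 0.18 and 0.24 for 4 and 6 h, reached 0.42, 0.51 and 0.54 for 8, 10 and 12 h, and stood at 0.42 and 0.28 for 16 and 24 h. Over all probe sets tested, the median lay between -0.23 and 0.06 at these times and was -0.20 at 12 h. With each array centred on its own median instead, the members' median became 0.52 (4 h) and 0.82 (12 h). The calls were then 17 higher and 0 lower for 4 h, 8 and 0 for 6 h, and 33 and 0 for 12 h. Under the same scaling, 10.5%, 5.29% and 9.86% of all probe sets were called higher at these times and 2.21%, 6.11% and 4.01% lower, so that lower calls became fewer over all probe sets as well, and the median over all at 12 h was 0.08. Without replicate 2 of IL-2 4 h, 11 members were called at 4 h in place of 18, and without replicate 3 of IL-2 6 h, 14 were called at 6 h in place of 22.

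**Figure D2:**
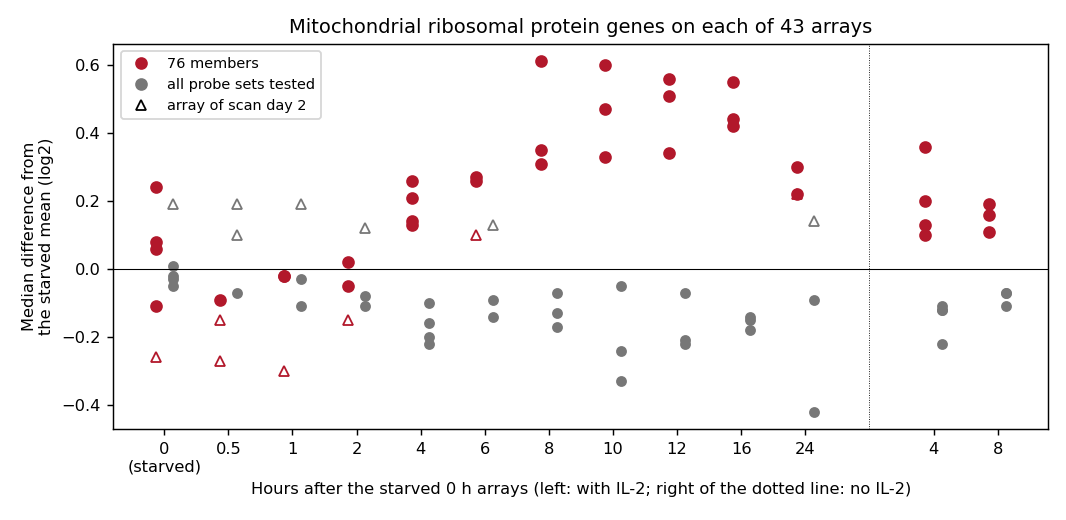
Median, over the 76 members (red) and over all probe sets tested (grey), of the difference between each of the 43 arrays and the starved mean on the log2 scale, by hours, with the arrays of scan day 2 as open triangles and the arrays without IL-2 right of the dotted line. All arrays with IL-2 for 8 to 16 h have member medians of 0.31 to 0.61, above the highest starved array at 0.24. The arrays without IL-2 at 4 and 8 h have 0.10 to 0.36. Replicate 2 of no IL-2 4 h, at 0.36, also lies above that starved array.

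On single arrays, the members' median difference was 0.35, 0.61 and 0.31 for the 8 h group, 0.47, 0.60 and 0.33 for 10 h, 0.51, 0.56 and 0.34 for 12 h, and 0.44, 0.55 and 0.42 for 16 h. It was -0.11, -0.26, 0.08, 0.24 and 0.06 on the starved arrays, so these groups did not overlap. Scan day 3 held 2 starved arrays and arrays of every IL-2 time. Within it the members' median came to 0.26, 0.27, 0.27 and 0.37 for 8, 10, 12 and 16 h, from 2, 1, 1 and 2 arrays with IL-2. These are values with no test. Each was smaller than its value over all arrays, which was 0.42, 0.51, 0.54 and 0.42, and the largest was that of 16 h. The other arrays of 10 and 12 h were all scanned on scan day 6, which held no starved array. The part of that day in the medians over all arrays was not tested.

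In all, 40 members were called higher at 1 or more times, 7 were called lower, 0 were called both ways and 29 were never called. The shares of all probe sets called higher or lower at any time were not computed, so these counts have none beside them. Of the 40, 20 were higher at each of 8, 10, 12 and 16 h, and 11 at each time from 4 to 16 h. The 28 members found only in mitochondria and the 47 related to bacterial proteins both took part, with 12 and 23 called higher at 12 h and medians of 0.32 and 0.56. By subunit, 21 of 49 large-subunit and 14 of 26 small-subunit members were higher at 12 h, with medians of 0.40 and 0.56. At 24 h the count was 11 for the large subunit and 1, Mrps12, for the small one. Over all probe sets, 7.91% were higher at 12 h and 3.44% at 24 h. Differences between these subgroups were not tested.

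**Figure D3:**
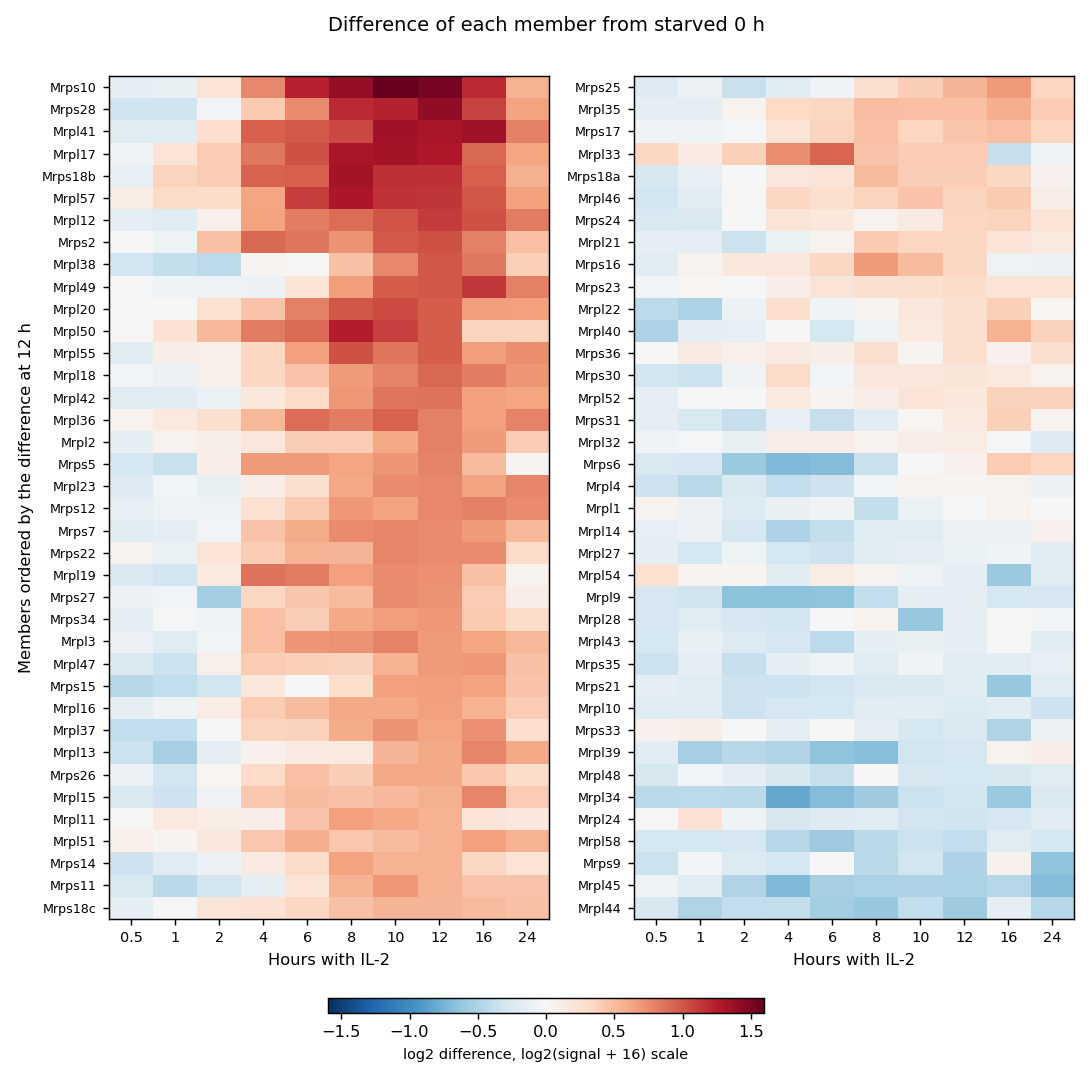
Difference of each of the 76 members from starved cells at the 10 IL-2 times, on the log2(signal + 16) scale, with genes ordered by their difference at 12 h down the left panel and then the right. Mrps10 at the top reaches 1.59 at 10 h, and the lower end of the right panel holds the members below the starved level, such as Mrpl45 and Mrpl58.

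The small-subunit gene Mrps10, whose protein is the relative of bacterial S10 in the head of the subunit, had the smallest p of the F test (limma adjusted p = 7.32e-10). Its signal averaged 746 ± 153 in starved cells, 847 ± 37 after 2 h, 1274 ± 227 after 4 h, 2255 ± 367 and 2153 ± 327 after 10 and 12 h, and 1113 ± 272 after 24 h (SD; n = 5 starved, 4 at 4 h, 3 otherwise). At 12 h its signals were 1977, 2531 and 1952, against 636, 577, 772, 974 and 768 in starved cells. The groups did not overlap, and the difference was 1.52 ± 0.20 (SE; limma adjusted p = 1e-06). Its other probe set differed by only 0.17 at 12 h, so the 2 probe sets of this gene did not move alike.

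Mrps28, also of the small subunit, rose later: its difference was 0.42 at 4 h (limma adjusted p = 0.158) and 0.76 at 6 h. Its signals at 12 h were 1981, 2587 and 1887, against 730, 580, 1043, 989 and 698 in starved cells, which did not overlap. The difference was 1.42 ± 0.22 (limma adjusted p = 7.94e-06). This gene has a single probe set on the array.

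Mrpl41, a large-subunit protein also known as a partner of Bcl-2, was among the members that rose first. Its signals at 4 h were 4718, 3685, 5802 and 3517, against 2534, 1761, 2680, 2474 and 1811 in starved cells, a difference of 0.96 ± 0.23 (limma adjusted p = 0.00296). All arrays at 4 h lay above all starved arrays, and so did those at each time up to 16 h, where the difference was 1.36. At 16 h the signals were 8312, 5600 and 3972, so the arrays of this group spread widely. At 24 h they were 4937, 4778 and 2506, which overlapped with starved cells, and the difference was 0.81 (limma adjusted p = 0.036).

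Mrpl49, found only in mitochondria, was not called at 4 or 6 h and rose from 8 h on. Its 4 h signals were 440, 442, 364 and 519, against 438, 470, 424, 488 and 537 in starved cells, a difference of -0.10 ± 0.16 (limma adjusted p = 0.745). At 16 h its signals were 932, 1196 and 1028, and none overlapped with the starved arrays. The difference was 1.13 ± 0.18 (limma adjusted p = 1.67e-05) at 16 h and 0.81 at 24 h, and both probe sets of the gene were called at 12 h, with 0.99 and 1.05.

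**Figure D4:**
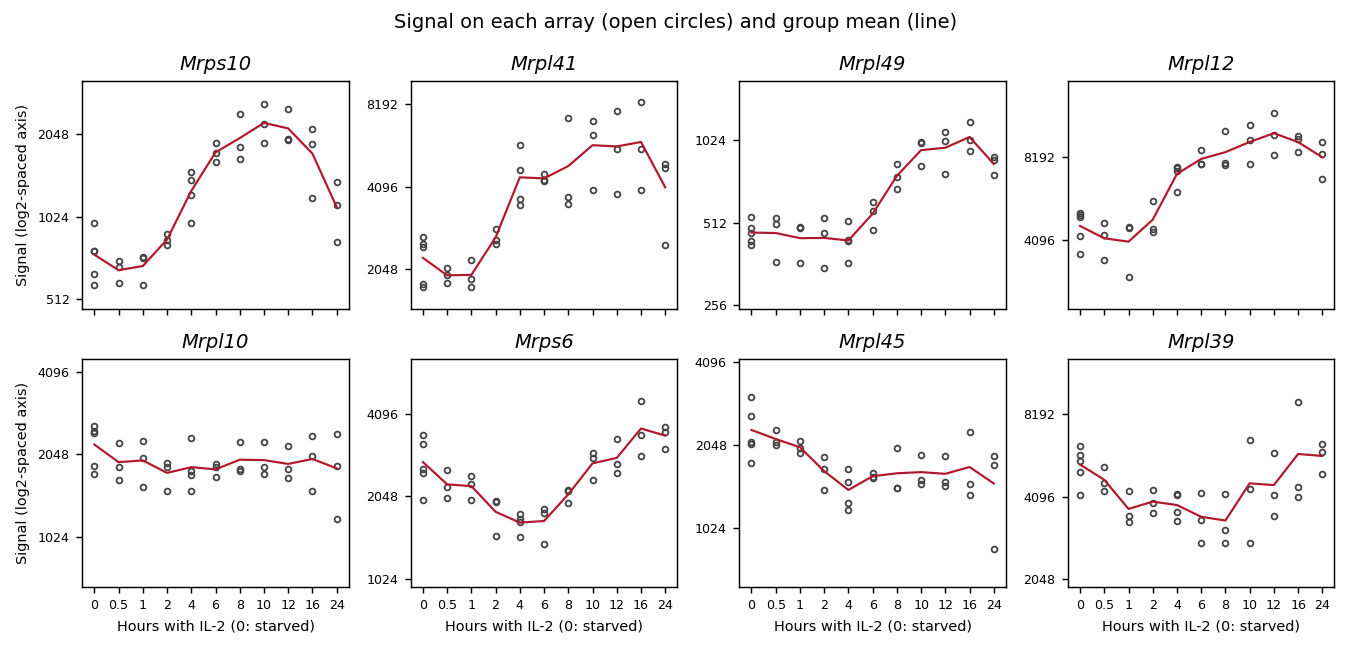
Signal of 8 members on each array (open circles) and its group mean (line) by hours with IL-2, with starved cells at 0, on log2-spaced axes. Mrps10, Mrpl41 and Mrpl12 have means above the starved one at 4 h, Mrpl49 has a mean of 552 at 6 h and of 759 at 8 h, above the starved 471, Mrpl10 stays near its starved level, Mrps6 dips at 4 and 6 h, and Mrpl45 and Mrpl39 show their lowest means at 4 and 8 h.

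The members differed in when they were first called higher, which was 4 h for 13 of them, 6 h for 5, 8 h for 9, 10 h for 9, 12 h for 3 and 16 h for 1. No such counts were made over all probe sets. Besides Mrpl41, the largest differences at 4 h were those of Mrps18b (0.94 ± 0.21) and Mrps2 (0.92 ± 0.19), with Mrpl19 at 0.87. Mrps2, the relative of bacterial S2, had signals of 2752, 2773, 3218 and 2303 at 4 h, against 1495, 1401, 1641, 1358 and 1346 in starved cells, without overlap (limma adjusted p = 0.000676). At 6 h the largest differences were those of Mrps10 (1.24), Mrpl57 (1.11) and Mrpl17 (1.02). Mrpl57 reached its highest mean at 8 h, where its signals were 8396, 6966 and 8490, against 3011, 3030, 2882, 2997 and 4410 in starved cells, and the difference was 1.29 ± 0.17 (limma adjusted p = 1.45e-06).

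Mrpl23 and Mrpl38 belonged to the late group. Mrpl23, at the rim of the tunnel through which new proteins leave, differed by 0.11 at 4 h and was called from 8 h (0.62) through 24 h (0.78 ± 0.15, limma adjusted p = 0.000856), the last lost with only the arrays compared in the fit. Its 24 h signals were 2597, 3507 and 2859, against 1713, 1550, 1665, 2009 and 1721 in starved cells, so that its level at 24 h was as far above the starved one as at 12 h (0.77). At 8 h with against without IL-2, Mrpl23 differed by 0.05 ± 0.17 (limma adjusted p = 0.881). Mrpl38 was first called at 10 h (0.77) and differed by 0.99 ± 0.20 at 12 h and 0.38 at 24 h (limma adjusted p = 0.265).

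Mrpl12 and Mrpl10 form the stalk that recruits translation factors to the large subunit, with Mrpl10 as the anchor and Mrpl11 at the base. Mrpl12 rose: its signals at 12 h were 11882, 9901 and 8335, against 4218, 3651, 5158, 5066 and 4949 in starved cells, a difference of 1.12 ± 0.19 (limma adjusted p = 2.97e-05). It was called at each time from 4 to 24 h. Set against cells without IL-2, Mrpl12 differed by 0.08 ± 0.18 at 4 h (limma adjusted p = 0.833) and 0.40 ± 0.21 at 8 h (limma adjusted p = 0.193), neither called. Mrpl10 was not called at any time, with differences between -0.33 and -0.17 and an F test p of 0.932 after adjustment by limma. Its signals at 12 h were 1674, 2189 and 1808, inside the range of the starved arrays, 1740 to 2591, but for 1 array below it. Mrpl11 was called higher at 8 h (0.66) and 10 h (0.60) but not by the F test.

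Around the catalytic centre of the large subunit, Mrpl2, Mrpl3 and Mrpl16 rose at 12 h, while Mrpl4 and Mrpl27 were not called there. At that time Mrpl2 averaged 1644.5 against 945 in starved cells (0.80 ± 0.16), Mrpl3 2184 against 1349 (0.68 ± 0.17) and Mrpl16 2917 against 1837 (0.66 ± 0.14). Mrpl4 differed by 0.04 ± 0.17 and Mrpl27 by -0.11 ± 0.19. Of the other proteins of the exit tunnel, Mrpl22 (0.25 ± 0.24) and Mrpl24 (-0.32 ± 0.25) were not called at 12 h.

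Proteins of the small subunit gave a similar mixture. Mrps12, the relative of the decoding-site protein S12, averaged 3588 at 12 h against 2104 in starved cells (0.77 ± 0.17) and was still higher at 24 h (0.76 ± 0.17, limma adjusted p = 0.00304), though not with only the arrays compared in the fit. Mrps7 differed by 0.76 ± 0.18 at 12 h, and the RNA-binding Mrps27 by 0.72 ± 0.22. Mrps5 differed by 0.79 ± 0.29 (limma adjusted p = 0.0473), a call lost under 7 of 12 alternative settings and when any of 5 arrays was left out singly. Mrps9 was not called at any IL-2 time against starved cells.

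The 3 relatives of bacterial S18 sit in different places, Mrps18b and Mrps18c in the small subunit and Mrps18a in the large one. Mrps18b rose, with signals of 3238, 3920 and 2823 at 8 h, against 1403, 946, 1262, 1421 and 1572 in starved cells (1.33 ± 0.23, limma adjusted p = 4.54e-05). Mrps18a differed by 0.51 ± 0.20 at 8 h (limma adjusted p = 0.0646) and Mrps18c by 0.54 ± 0.21 at 12 h (limma adjusted p = 0.0697), neither of which was called. Whether the 3 differ from each other was not tested. Mrps30, named for the small subunit but placed in the large one, differed by 0.19 ± 0.18 at 12 h, and Mrps36, now known as a subunit of the 2-oxoglutarate dehydrogenase complex, by 0.25 ± 0.18; neither was called at any time.

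The members with the largest p of the F test were Mrpl48 (limma adjusted p = 0.987), Mrpl10, Mrpl27 (0.911), Mrps36 (0.909) and Mrpl1 (0.883). Mrpl1 belongs to a mobile stalk beside the site where spent tRNA leaves. Its signals at 12 h were 780, 812 and 925, against 817, 744, 1130, 651 and 967 in starved cells, which overlapped.

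The 7 members called lower at any time were Mrpl9, Mrpl34, Mrpl39, Mrpl45, Mrpl54, Mrpl58 and Mrps6. Mrpl45, which tethers the ribosome to the inner membrane, had signals of 1258, 1494, 1672 and 1190 at 4 h, against 1767, 2101, 2620, 3065 and 2061 in starved cells, and the groups did not overlap. The difference was -0.71 ± 0.19 (limma adjusted p = 0.00647). At the later times its differences lay between -0.46 and -0.69, and only that at 24 h was called (limma adjusted p = 0.0239). Its 24 h signals were 858, 1860 and 1728, the lowest on the array of scan day 2, and the groups overlapped. With the arrays centred on their medians, its difference at 4 h was -0.36 and at 24 h -0.52, and neither was called.

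Mrps6, the relative of bacterial S6, was called lower at 4 h and 6 h. Its signals at 4 h were 1654, 1451, 1697 and 1757, all below the starved 3179, 1990, 2571, 2478 and 3410, with a difference of -0.71 ± 0.16 (limma adjusted p = 0.0021), and at 6 h the difference was -0.69. At 2 h its signals, 1966, 1466 and 1954, also lay below all starved arrays, with a difference of -0.59 (limma adjusted p = 0.0659). At 10 h it was 0.00 and at 16 h 0.40 (limma adjusted p = 0.126). Centred on array medians, the 4 h difference was -0.36 and was not called.

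Mrpl9 was the first to be called lower, at 2 h, with signals of 1477, 1461 and 1464, against 1657, 2291, 2467, 3048 and 2410 in starved cells (-0.66 ± 0.18, limma adjusted p = 0.0272). The 3 arrays lay close together and below all starved arrays. That call was lost when any 1 of the 3 arrays at 2 h, or replicate 3 or 4 of the starved group, was left out. All 3 probe sets of Mrpl9 were called lower at 4 h, with differences between -0.66 and -0.52.

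Mrpl39, which is related to a tRNA synthetase, was called lower at 6 h (-0.64 ± 0.22) and 8 h (-0.68 ± 0.22), where its signals were 2770, 4193 and 3086, against 5543, 5025, 5794, 6275 and 4154 in starved cells. The highest 8 h array overlapped with the lowest starved array. Mrpl58, the member of the large subunit that can release stalled peptides, was called lower at 4 h (-0.46) and 6 h (-0.58), and Mrpl34 at 4 h alone (-0.82 ± 0.28, limma adjusted p = 0.0424). Mrpl54 was called lower at 16 h alone (-0.60 ± 0.20), where replicate 1 stood at 315 and the others at 768 and 649, inside the starved range of 576 to 1043. Without replicate 1 its difference was -0.23 and was not called, and the call was also lost without replicate 2, 3 or 4 of the starved group.

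The members' levels at 24 h did not pass the test against those at 12 h. Limma called 0 members, and 0.00% of all probe sets, at 24 h against 12 h; 13 members and 3433 of all probe sets had an unadjusted p under 0.05. The median difference of the members was -0.18, against 0.00 over all. Mrps10 averaged 1113 at 24 h and 2153 at 12 h, without overlap (-0.96 ± 0.23, limma adjusted p = 0.101). Mrpl23 was at 2988 and 2958 (0.01 ± 0.17). Without replicate 1 of the 24 h group, which was scanned on scan day 2, 5 members were called.

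Cells given IL-2 were next set against cells kept without it for the same time, which holds the time in culture equal but not the scan year. At 8 h with IL-2, 17 members were higher and 8 lower than at 8 h without it, against 8.68% and 11.0% of all probe sets (19.7% called), and the members' median difference was 0.23, against -0.01 over all. Mrpl50 showed the largest difference, with signals of 1341, 1099 and 1018 with IL-2, against 304, 278 and 319 without it. The groups were far apart, and the difference was 1.88 ± 0.35 (limma adjusted p = 0.000148). In starved cells Mrpl50 had signals of 249 to 675, so the level without IL-2 lay at the lower end of that range.

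Mrpl17, Mrpl55, Mrps18b and Mrps22 followed at 8 h. Mrpl17 had signals of 4527, 4916 and 3987 with IL-2, against 1833, 1668 and 1723 without it (1.35 ± 0.25, limma adjusted p = 0.000101), but averaged over its 3 probe sets the difference was 0.53 and was not called. Mrpl55, which has 1 probe set, had 1578, 1968 and 1652 with IL-2, against 703, 632 and 691 without it (1.33 ± 0.25, limma adjusted p = 0.00015). Mrps18b differed by 1.11 ± 0.25 and Mrps22 by 1.04 ± 0.20. Mrps10 differed by 0.79 ± 0.23 (limma adjusted p = 0.0099), and by 0.08 when averaged over its probe sets.

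Lower with IL-2 at 8 h were Mrps9 (-0.86 ± 0.29), Mrps6 (-0.82 ± 0.20), Mrpl13 (-0.79 ± 0.24), Mrpl9 (-0.70 ± 0.20) and Mrpl39 (-0.69 ± 0.25) as the first 5. Mrps6 had signals of 2163, 2140 and 1935 with IL-2, against 3672, 3696 and 3668 without it, and the groups did not overlap (limma adjusted p = 0.00245). Mrpl13 had 2181, 2376 and 2260 with IL-2, against 4118, 3708 and 3975 without it. Its level with IL-2 lay within the starved range of 1433 to 2777, and the level without IL-2 lay above it. Centred on array medians, 4 members were called higher and 0 lower in this comparison; without replicate 2 of IL-2 8 h or replicate 3 of no IL-2 8 h, 15 members were called in each case.

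**Figure D5:**
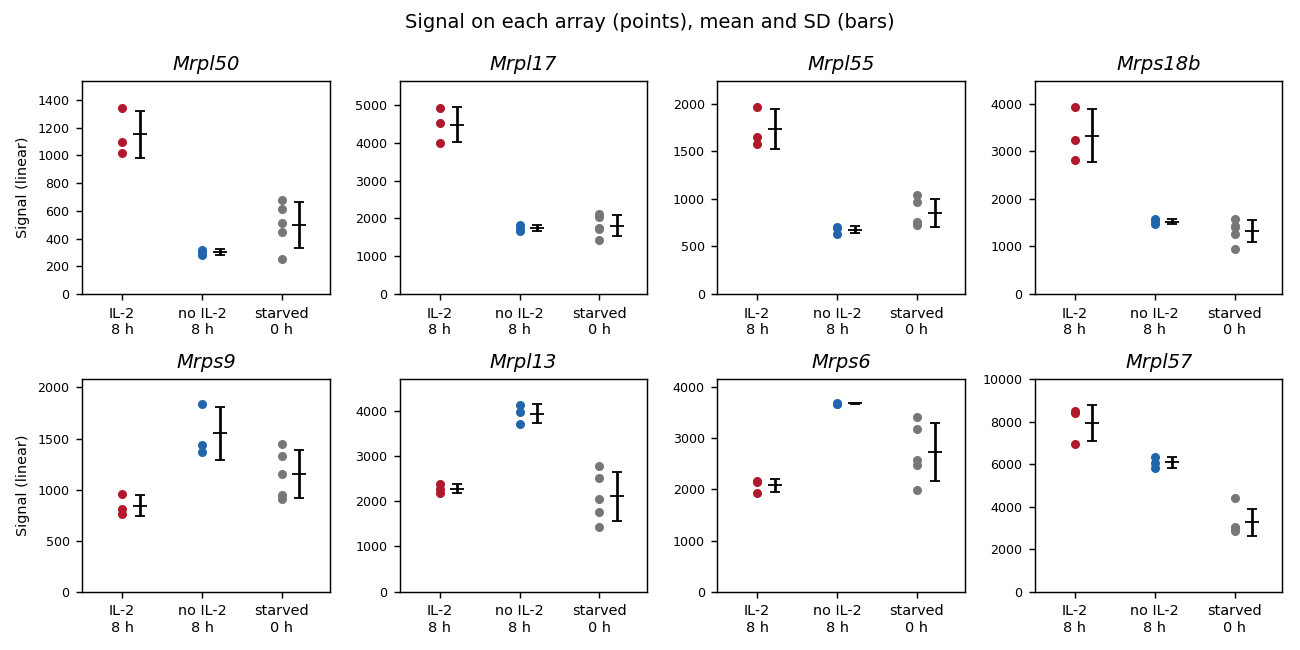
Signal of 8 members on each array at 8 h with IL-2, at 8 h without it and in starved cells, on a linear scale, with the mean and SD of each group as bars. Mrpl50, Mrpl17, Mrpl55 and Mrps18b are highest with IL-2, Mrps9, Mrpl13 and Mrps6 are highest without it, and Mrpl57 is above the starved level in both.

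At 4 h with IL-2, 6 members were higher and 8 lower than at 4 h without it, against 7.27% and 7.20% of all (14.5% called), and the median was -0.06, against 0.01 over all. The higher ones with the largest differences were Mrpl1 (0.81 ± 0.21), Mrpl41 (0.77 ± 0.24), Mrps2 (0.68 ± 0.20), Mrps22 (0.58 ± 0.18) and Mrps17 (0.57 ± 0.14). The lower ones with the largest differences were Mrpl34 (-1.25 ± 0.30), Mrpl9 (-1.0 ± 0.17), Mrpl4 (-0.84 ± 0.17), Mrps9 (-0.73 ± 0.25) and Mrps6 (-0.68 ± 0.17). Mrpl9 had signals of 1236, 1305, 1510 and 1937 with IL-2, against 3096, 2064, 3482 and 3470 without it, and the groups did not overlap (limma adjusted p = 0.000103). Mrpl41 had 4718, 3685, 5802 and 3517 with IL-2, against 2473, 3506, 2376 and 2042 without it, where replicate 2 without IL-2 came close to the lowest array with it (limma adjusted p = 0.0287). Without replicate 1, 3 or 4 of no IL-2 4 h, 9, 9 and 7 members were called, and centred on array medians 1 was higher and 3 were lower. Leaving out single arrays also raised the count in part, as the range in the last section shows. Replicate 2 of no IL-2 4 h, which stood apart from its group as given below, enters this comparison and the next. The IL-2 effect at 8 h was larger than at 4 h by a median of 0.23, against -0.04 over all probe sets. Limma called 0 members for this difference of effects (0.0496% of all probe sets, 0.0310% higher and 0.0186% lower). An unadjusted p under 0.05 was reached by 12 members (15.8%), against 9.65% of all.

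At 4 h without IL-2, 6 members were higher and 1 lower than in starved cells, against 2.58% and 5.42% of all (8.00% called). Here the further hours without IL-2 and the later scan year cannot be told apart. With the scan day as a random block, 1 member was called at 4 h and 1 at 8 h in place of 7 and 7. At 8 h the counts were also 6 and 1, against 2.26% and 3.19% (5.45% called). The calls made up 9.21% of the members at each time, close to the share over all at 4 h, and the medians were 0.22 and 0.20, against -0.18 and -0.11 over all. Mrpl57 was higher at both times: its signals were 6359, 5844 and 6075 at 8 h without IL-2, against 3011, 3030, 2882, 2997 and 4410 in starved cells (0.91 ± 0.17, limma adjusted p = 0.00107). Its difference between 8 h with and without IL-2 was 0.38 ± 0.19 (limma adjusted p = 0.184).

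Mrpl13 also rose without IL-2, by 0.60 ± 0.20 at 4 h (limma adjusted p = 0.0495) and 0.93 ± 0.21 at 8 h. At 4 h Mrpl19 (0.93 ± 0.21), Mrpl57 (0.84), Mrps10 (0.68) and Mrpl12 (0.55) were higher too. Mrpl36 (0.67), Mrpl52 (0.69) and Mrpl23 (0.56) were higher at 8 h. Mrpl1 was the only member called lower, with signals of 515, 389 and 405 at 8 h without IL-2, against 817, 744, 1130, 651 and 967 in starved cells, without overlap (-0.94 ± 0.22, limma adjusted p = 0.00687). Averaged over its 3 probe sets, that difference was -0.50 and was not called. At 4 h with against without IL-2, Mrpl19 differed by -0.06, Mrpl57 by -0.21, and Mrps10 and Mrpl12 by 0.08 each, none of which was called. At 8 h with against without IL-2, Mrpl36 differed by 0.15 and Mrpl23 by 0.05, neither called, and Mrpl52 by -0.58, called lower.

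Replicate 2 of no IL-2 4 h stood apart from the other 3 arrays of its group. Mrpl19 was at 3805 on it and at 1525, 1631 and 1718 on the others, and Mrpl12 was at 10876 on it and at 5221, 5593 and 6374 on the others. Without that array, 2 members were called at 4 h without IL-2 against starved cells in place of 7, while 11 were called without replicate 4 of the starved group. At 8 h without IL-2, 3, 3 and 4 members were called without each of its 3 arrays in turn. Centred on array medians, 12 members were higher and 0 lower at 4 h, and 3 and 0 at 8 h. The larger actin ratio of these arrays moved with the comparison, and its part in the result was not tested.

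Probe sets of the same gene did not always move alike. Of 39 members with more than 1 tested probe set, 31 had the same sign in all of them at 12 h, and 0 had probe sets called in both directions at 12 h or at 4 h. Some members not called at 12 h had another probe set called there. In Mrpl28 the probe set kept differed by -0.15, while 2 of its 3 were called higher, with differences up to 0.73. Averaged over all probe sets of a gene, Mrps10 at 6 h differed by 0.71 in place of 1.24 and Mrpl17 at 8 h by 0.43 in place of 1.31, and neither was called. For Mrpl41, Mrpl49 and Mrpl50, both tested probe sets were called higher at 12 h. Where the probe sets of a gene disagree, the gene's level is uncertain to that extent.

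In the authors' deposited table of 3838 regulated probe sets in 9 clusters, 27 probe sets of 21 members were listed: 6 in cluster 2, 12 in cluster 4, 7 in cluster 5 and 2 in cluster 9. Clusters 4 and 5 of the authors' deposited table held 712 and 844 probe sets in all. Mrps10, Mrpl12, Mrpl17, Mrpl41 and Mrpl55 were in its cluster 4, Mrps28, Mrps18b and Mrpl50 in cluster 5, and Mrpl49 and Mrpl57 in cluster 2. None of the 7 members called lower was in the authors' deposited table.

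Over the 11 group means of the time course, the pattern of Mrps28 was most like the median of the other members, with r = 0.99 and that of Mrpl24 least, with r = -0.88. The median r over the 76 members was 0.86, with 31 members above 0.9 and 13 below 0. These values describe means that share arrays and their scaling.

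Proteins of the same ribosome that do not bear an Mrp name were followed as well. Of Dap3, Ptcd3, Chchd1 and Gadd45gip1, 3 were higher at 12 h and 0 lower, against 7.91% and 11.4% of all probe sets. Ptcd3, an RNA-binding protein of the small subunit, differed by 1.09 ± 0.18 at 4 h and 1.08 ± 0.20 at 12 h, and Gadd45gip1 by 0.76 at 4 h and 1.17 at 12 h. Gadd45gip1 was also higher than in starved cells at 4 h without IL-2 (0.77 ± 0.22, limma adjusted p = 0.0232), and with against without IL-2 it differed by -0.00 ± 0.23 at 4 h and 0.22 ± 0.26 at 8 h, neither called. Dap3, a GTP-binding protein of the small subunit, was lower at 4 h (-0.81 ± 0.28), 6 h (-1.28 ± 0.30, limma adjusted p = 0.0023) and 8 h (-0.87 ± 0.30), and not called at 12 h (-0.65, limma adjusted p = 0.14). With IL-2 it was also lower than without it, with differences of -1.05 ± 0.29 at 4 h and -1.01 ± 0.34 at 8 h.

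Translation factors and assembly factors of this ribosome gave mixed counts. At 12 h, 2 of 10 translation factors were higher and 1 lower, with a median of 0.14. Of 21 assembly factors, 3 were higher and 3 lower at that time, with a median of 0.04. Over all probe sets tested, 7.91% were higher at 12 h and 11.4% lower. The rRNA methyltransferase Mrm3 was called from 2 h (1.08 ± 0.26) and differed by 1.55 ± 0.23 at 4 h, and Fastkd2, an RNA-binding protein of mitochondria, by 1.23 ± 0.28 at 4 h. Mtif3, an initiation factor, was lower at 4 h (-0.83 ± 0.21). Of 6 genes for the expression of mitochondrial DNA, 1 was higher at 12 h, Slirp (0.76 ± 0.18), and 0 were lower.

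Among 9 regulators listed for such genes, 3 were higher at 12 h and 0 lower, against 7.91% and 11.4% of all probe sets. Myc differed by 4.39 ± 0.56 at 2 h and by 3.68 ± 0.56 at 12 h, and it was also higher at 4 h without IL-2 (2.73 ± 0.52). Whether Myc bears on the members' levels was not tested. Pprc1, a coactivator of the PGC-1 family, differed by 1.85 ± 0.42 at 2 h and 1.80 ± 0.42 at 12 h, and Gabpb1, a subunit of GABP, by 1.03 ± 0.23 at 12 h. Nrf1 (-0.45, limma adjusted p = 0.108) and Gabpa (-0.45, limma adjusted p = 0.203) were not called at 12 h.

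The proteins of the cytosolic ribosome gave other counts on the same arrays. Of 42 tested, 2 were higher at 12 h and 0 lower, against 7.91% and 11.4% of all probe sets, with a median of 0.02. The F test called 3 of them, against 26.7% of all. At 8 h without IL-2, 29 of the 42 were higher than in starved cells and 0 lower, with a median of 0.64. Over all probe sets, 2.26% were higher there and 3.19% lower. At 8 h with IL-2 against 8 h without it, 18 were lower and 1 higher, against 11.0% and 8.68% of all. The counts at 8 h move with the arrays of the later scan year. Against starved cells, the part of the scan cannot be told apart from that of the further hours without IL-2. Between the 8 h groups, it cannot be told apart from that of IL-2.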

How the data were processed

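Signals of 45101 probe sets on 43 Affymetrix Mouse Genome 430 2.0 arrays were deposited by the authors as linear intensity values, made with GCOS 1.3 per the submitters' processing notes and scaled to a common trimmed mean, as the values show. The deposited false discovery rates are p-values of the authors' own test and were used only to describe their list. Probe sets were named from the platform annotation, in which the gene Ict1 is Mrpl58. Signals were taken as log2(signal + 16), control probe sets were removed, and 32234 probe sets above the array median on at least 3 arrays entered the fit (limma 3.58.1 under R 4.3.3, lmFit and eBayes with trend), which had 1 mean per group over all 43 arrays and Benjamini-Hochberg adjustment over all probe sets tested. The script was tested on simulated data in which arrays varied independently, without scan days. A gene was called at an adjusted p under 0.05. Per the labels the arrays are replicates of a time point. The p-values rest on the spread of arrays within groups, pooled over all 13 groups (30 residual degrees of freedom). They do not measure the spread of the compared groups alone. The fit took arrays as independent, while the consensus correlation within scan days was 0.348 with the scan day as a random block. Named genes were the 8 members with the smallest and the 5 with the largest F test p, the 3 largest called rises and falls at each IL-2 time, the 5 largest in the other comparisons, and a panel by role. The members, gene lists and tests were chosen with earlier results of these data known, and the difference between the IL-2 effects at 8 and 4 h was added after seeing them. Alternatives were other pseudocounts, scalings, filters, designs, scan-day terms and probe set rules, and leaving out each array. Replicate numbers were checked for pairing: deviations of same-numbered arrays had a mean correlation of 0.0496, against -0.019 for others, and the lowest was -0.358, so the numbers do not pair the arrays.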

Additional observations from a re-analysis of the deposited data

Results flagged for a closer look

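In 45 named members, 3 groups of 4 or 5 arrays each were checked for an array far from the others of its group (Dixon's test at the 95% level), and 11 of 135 checks passed, where chance gives about 1 in 20. Replicate 2 of no IL-2 4 h gave 9 of them, on the log2(signal + 16) scale. It was high for Mrpl3 (11.39, others 10.59 to 10.69), Mrpl19 (11.90, others 10.59 to 10.76), Mrpl50 (9.92, others 8.51 to 8.66), Mrpl55 (10.51, others 9.48 to 9.54), Mrpl57 (12.85, others 12.34 to 12.41), Mrps2 (11.45, others 10.41 to 10.58), Mrps10 (10.80, others 9.99 to 10.11) and Mrps27 (9.46, others 8.50 to 8.66). It was low for Mrpl39 (11.88, others 12.22 to 12.24). Mrpl57 was also high on replicate 2 of IL-2 4 h (12.78, others 12.08 to 12.15) and on replicate 5 of the starved group (12.11, others 11.50 to 11.57). The checks of 1 array over many genes are not independent.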

How the results depend on the processing

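No named member and no count reversed direction under any alternative run. Counts of called members that moved by over 1.5 times were as follows. With arrays centred on their medians, they were 0 for 2 h (1 as reported), 8 for 6 h (22), 17 for 8 h (28) and 6 for 24 h (13), 4 (14) and 4 (25) for the 4 h and 8 h pairs with and without IL-2, and 12 (7) and 3 (7) for 4 and 8 h without IL-2 against starved cells. With only the arrays compared in the fit, they were 0 for 2 h, 13 for 16 h (31), 0 for 24 h, 40 for the 8 h pair and 2 for 4 h without IL-2. With the scan day as a random block they were 2 for 2 h, 22 for 24 h, 15 for the 8 h pair, and 1 and 1 for 4 and 8 h without IL-2. As a fixed term, the scan day gave 2 for 2 h, 30 for 4 h (18) and 20 for 10 h (33), and it could not be fitted where arrays without IL-2 enter. Without scan day 2 the counts were 0 for 2 h, 8 for 24 h and 4 for 24 h against 12 h (0). The filter at the 75th percentile gave 2 for 2 h, 21 for 24 h and 1 for 24 h against 12 h, quantile normalisation gave 2 at 2 h, and averaging probe sets gave 3 and 3 for 4 and 8 h without IL-2. With the replicate block, the count at 2 h was 0 and no other count moved by over 1.5 times. Leaving out 1 array at a time gave 41 to 47 members for the F test, 0 to 0 for 0.5 and 1 h, 0 to 2 for 2 h, 11 to 17 for 4 h, 14 to 24 for 6 h, 20 to 29 for 8 h, 23 to 37 for 10 h, 25 to 40 for 12 h, 26 to 31 for 16 h and 9 to 17 for 24 h. It gave 7 to 20 and 15 to 20 for the 4 h and 8 h pairs, 2 to 11 and 3 to 8 for 4 and 8 h without IL-2, and 0 to 5 for 24 h against 12 h. Where not given by a setting's own construction, the cause was not tested. Of 139 named results, median centring kept 104 on their side of the threshold and averaging probe sets 111. All members lay above the array median on all arrays; whether signal strength bears on the calls was not tested.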
